A study of Mus musculus with 9 samples.

Results

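The genes described here are 10 regulators and receptors of the primitive endoderm, namely the transcription factors Gata4, Gata6, Sox17, Sox7 and Foxa2, and the receptor, adaptor and endocytic genes Pdgfra, Dab2, Cubn, Lrp2 and Amn. They were taken by symbol from 24132 RefSeq symbols measured in 9 RIPiT-seq libraries. The choice used measured values: these genes were selected on their high RPKM in the F266A libraries, so every comparison of the F266A line with the other lines is given below as a description, without a test. RIPiT-seq recovers RNA that was crosslinked to a doubly tagged protein through 2 successive immunoprecipitations (IPs), and each IP is read against an input of RNA from the same cells.

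All libraries came from V6.5 mouse embryonic stem cells (ESCs), a hybrid mouse line, which were grown without feeder cells in medium with LIF and kept their endogenous Wdr5. One line carried a lentiviral vector with no cDNA (empty vector), one carried FLAG-HA tagged human WDR5 (WT), and one carried the FLAG-HA tagged human mutant F266A, a phenylalanine-to-alanine change studied for RNA binding, whose construct also lacked the N-terminal end of the protein. WDR5 is a subunit of the MLL complexes that methylate histone H3. Clones were picked after puromycin selection for a WDR5 level near that of the endogenous protein, so the clone and the construct cannot be told apart. Each line had 1 input library and 2 IP libraries, and the inputs had no replicate. Nothing in the labels says that the IPs of a line came from separate cultures, and p-values measure the spread between these IPs only.

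The primitive endoderm is the extraembryonic layer that forms beside the epiblast in the blastocyst and gives rise to the visceral and parietal endoderm of the yolk sac. GATA6 and GATA4 are zinc finger factors that drive this fate, SOX17 and SOX7 are related HMG box factors that follow them, and PDGFRA is the surface receptor by which the lineage is commonly recognised. In visceral endoderm, megalin (Lrp2) and cubilin (Cubn) with its partner amnionless (Amn) take up nutrients from outside the embryo, and DAB2 is the adaptor that links such receptors to clathrin. ESC cultures are known to hold a few cells of this kind. In RNA from a whole culture, fewer cells of a type and less RNA per cell cannot be told apart.

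Promoters are shown for Dab2 and Cubn because these genes reached the highest RPKM of the receptor group and moved together over the libraries. RefSeq starts on GRCm38.p6 were used for 6 of the 10 genes (Foxa2, Pdgfra, Dab2, Cubn, Lrp2 and Amn), with 9 starts in all. Gata4, Sox17 and Sox7 had no start available. Any window of Gata6 was left out of the 9, so the count of matches below does not cover that gene. Gata4, Gata6, Sox17 and Sox7 are thus named only. The 250 bases before each start were searched on both strands for TGATAA and AGATAA, letters that GATA factors are known to bind. The first lies at chr15:6299539-6299788 on the plus strand and the second at chr2:13491877-13492126 on the minus strand, each given 5′ to 3′ with any match in capitals.
Dab2: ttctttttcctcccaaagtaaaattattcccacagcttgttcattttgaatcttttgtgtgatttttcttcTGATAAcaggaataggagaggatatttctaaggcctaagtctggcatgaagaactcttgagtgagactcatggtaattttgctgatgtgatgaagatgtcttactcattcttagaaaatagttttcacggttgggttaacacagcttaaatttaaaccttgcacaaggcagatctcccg
Cubn: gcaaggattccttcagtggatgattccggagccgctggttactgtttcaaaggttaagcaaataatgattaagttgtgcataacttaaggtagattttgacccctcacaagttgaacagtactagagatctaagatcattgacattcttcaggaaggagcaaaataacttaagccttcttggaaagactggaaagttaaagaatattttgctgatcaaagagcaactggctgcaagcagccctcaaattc
The Dab2 window shown held TGATAA, beginning 179 bases before the start, and the Cubn window held no match. Dab2 has a second start in the table, whose window at chr15:6386498-6386747 held no match. Of the 9 windows, 2 held a match, one each of Dab2 and Foxa2, and 16.6% of all 32851 windows of this length in the same table held one. A match is only a description of the letters.

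Values are RPKM, in which reads are divided by the length of the transcript and by the sequencing depth, as the authors deposited them. Depth, estimated from the value that 1 read takes, ranged over the libraries from 13400000 to 50200000 mapped reads, and between 20.1% and 29.5% of them fell on genes. The second empty vector IP was the shallowest library, and read numbers below are estimates of this kind. One library stood apart from its line in genes other than the 10: the first F266A IP had a summed RPKM of 0.0383 over 4 Y-linked genes (Ddx3y, Uty, Eif2s3y and Kdm5d), against 4.43 in the F266A input and 7.21 in the second F266A IP. This sum was between 7.42 and 9.50 in the empty vector libraries and between 0.182 and 0.325 in the WT libraries. Hence the first F266A IP did not match the other libraries of its line in these genes, and it is given apart from the second throughout.

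Gata4 lies on chromosome 14 from 63817759 to 63890529 (mm9, minus strand). The empty vector input had an RPKM of 0.157, and the first and second IP of that line had 0.164 and 0.106. The WT values were 0.0688, 0.171 and 0.121 in the same order, and the F266A values were 1.90, 0.695 and 2.69. All F266A libraries were above the 6 libraries of the other lines, and the first F266A IP was the lowest of them. From about 243 reads in the F266A input and 37 in both other inputs together, the F266A input was 16.3 times as high (95% counting interval 11.5 to 23.7).

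Gata6, the GATA factor that acts earliest in this lineage, lies on chromosome 18 from 11052508 to 11085633 (plus strand). Its RPKM was 0.0187, 0.0250 and 0.0466 in the empty vector input and IPs, and 0.0219, 0.0229 and 0.0118 in those of WT. The F266A input had 0.777, its first IP 0.0615 and its second IP 0.936. In the first F266A IP it rested on about 4 reads and lay close to the second empty vector IP, whereas the other F266A libraries stood clear of all the rest. Over 58 of its 3194 exon bases Gata6 shares sequence with an exon of a gene on the opposite strand, and reads from such partners cannot be told apart in libraries that do not mark strand.

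Sox17 (chromosome 1, 4481009 to 4486494, minus strand) had an RPKM of 0.00637, 0.0381 and 0.0458 in the empty vector libraries, in the order input, first and second IP. The WT input was listed at 0, and the WT IPs were at 0.0117 and 0.0239. In the F266A line the input was at 0.228, the first IP at 0.0156 and the second IP at 0.207. Its level in the first F266A IP lay within the range of the other lines and held about 1 read, while the input and second IP held about 27 and 16.

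Sox7, the close relative of Sox17 (chromosome 14, 64562511 to 64569569, plus strand), was at 0.0731, 0.0368 and 0.0457 in the empty vector line. The WT libraries had 0.0569, 0.0560 and 0.0810. The F266A libraries had 0.467, 0.252 and 0.890, all above the 6 others. The first F266A IP was at 0.538 of the F266A input (counting interval 0.293 to 0.936), a higher ratio than for Gata4, Gata6 or Sox17. This interval lay above that of Gata6 (0.0211 to 0.209). It overlapped those of Gata4 (0.260 to 0.495) and Sox17 (0.0017 to 0.412), so counting error does not separate Sox7 from them.

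Foxa2 (chromosome 2, 147868613 to 147872705, minus strand), a forkhead factor of visceral and definitive endoderm, was the lowest of the 10 genes. It was listed at 0 in all 3 empty vector libraries, and had 0.00486, 0.0517 and 0 in the WT input and IPs. The F266A input had 0.0873 and the second F266A IP 0.0960, and the first F266A IP was listed at 0. These values stand for about 7 and 5 reads in the F266A input and second IP and about 3 in the first WT IP, so the order of these libraries is within counting error.

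Pdgfra (chromosome 5, 75548316 to 75594229, plus strand), the receptor for PDGF-A and other platelet-derived growth factors, was at 0.00891, 0 and 0.0331 in the empty vector line. The WT line had 0.0380, 0.0110 and 0.0295. The F266A input was at 0.330, with 0.0506 in the first and 0.379 in the second IP. With about 7 reads, the first F266A IP was only slightly above the WT input.

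Dab2, an endocytic adaptor and a known target of GATA factors in endoderm, lies on chromosome 15 from 6249788 to 6390712 (plus strand). Its RPKM was 0.176, 0.261 and 0.191 in the empty vector libraries and 0.0755, 0.172 and 0.0728 in WT. It reached 3.02 in the F266A input, 0.916 in the first IP and 5.43 in the second IP, the highest value of any of the 10 genes. All 3 F266A libraries lay above the rest, and the F266A input was 23.4 times as high as the other inputs (counting interval 17.7 to 31.4, about 528 against 56 reads).

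Cubn (chromosome 2, 13197965 to 13413551, minus strand), the receptor for intrinsic factor with cobalamin and for other ligands, was at 0.0569, 0.0607 and 0.0648 in the empty vector line. WT had 0.0279, 0.0288 and 0.0428. The F266A input was at 2.12, the first IP at 0.167 and the second IP at 2.24. Even the first F266A IP was above the 6 other libraries, but fell far short of its own input. Over 161 of 11815 exon bases Cubn shares sequence with an exon on the opposite strand.

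Lrp2, a very large endocytic receptor of the LDL receptor family, lies on chromosome 2 from 69262397 to 69424122 (minus strand), and was the one gene with 148 or more estimated reads in every library. It was at 0.774, 0.685 and 0.713 in the empty vector line and at 0.672, 1.03 and 0.727 in WT. In the F266A line it was at 1.35, 2.13 and 1.41, with the first IP above the second. The F266A libraries lay above the others here too, but the F266A input was only 1.85 times as high as the other inputs (counting interval 1.69 to 2.04).

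Amn (chromosome 12, 112509322 to 112514637, plus strand), which carries cubilin to the cell surface, overlapped between lines. It was at 0.0588, 0.0467 and 0.218 in the empty vector line, at 0.0822, 0.171 and 0.0441 in WT, and at 0.219, 0.114 and 0.236 in F266A. The F266A input and the second empty vector IP were nearly equal, and the F266A input rested on about 14 reads.

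**Figure D1:**
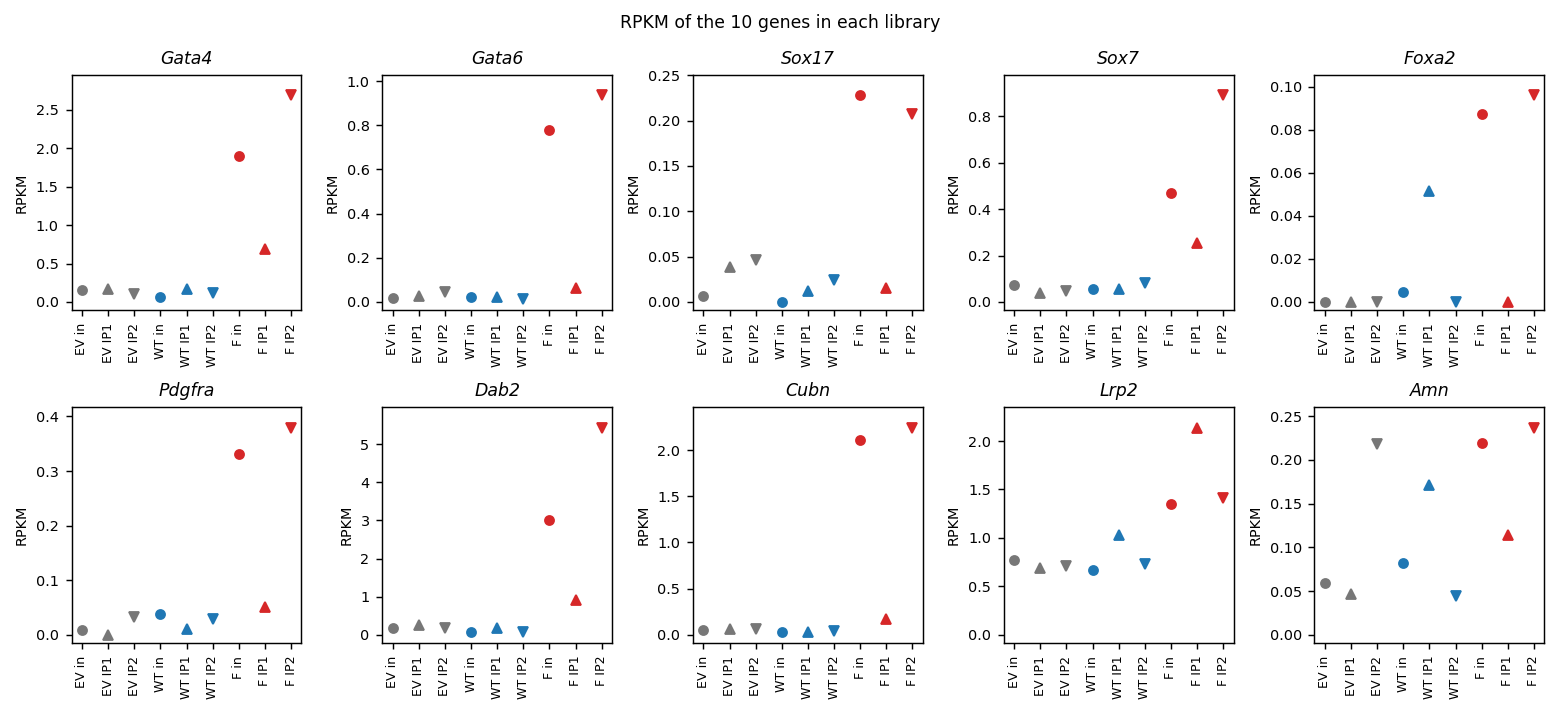
RPKM (y axis, linear, a scale of its own in each panel) of each of the 10 genes in the 9 libraries (x axis), with EV for empty vector, F for F266A, "in" for input, grey, blue and red for the lines, circles for inputs and triangles for the first and second IP. In 9 panels the second F266A IP lies above the first, and Lrp2 is the exception.

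Taking the genes one by one, the F266A input was the highest of the 3 inputs for 10 of 10, as it was for 27.4% of the 20431 genes with an RPKM above 0 in any library. The second F266A IP was above all 6 libraries of the other lines for 10 of 10 (24.1% of all genes), and the first for 7 of 10 (24.6% of all genes), with Sox17, Foxa2 and Amn as the exceptions. All 3 F266A libraries were above all 6 others for 7 of 10, against 3.19% of all genes. These counts follow from how the genes were chosen, and nothing is read from them. On the log2(RPKM + 1) scale, where differences of genes with low RPKM are understated, the F266A input exceeded the mean of the other inputs by a median of 0.45 over the 10 genes, from 0.12 for Foxa2 to 1.84 for Dab2. Among all 24132 symbols ordered by this difference, Dab2 was at rank 3, Cubn at 5, Gata4 at 11 and Gata6 at 66, while Amn was at 1697 and Foxa2 at 2658.

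The first and second F266A IP differed from each other for most of the 10 genes. For Cubn the first F266A IP was at 0.0792 of the F266A input (counting interval 0.0559 to 0.109) and the second at 1.06 (0.955 to 1.17). For Gata6 these ratios were 0.0789 (0.0211 to 0.209) and 1.21 (0.876 to 1.66), and for Dab2 0.302 (0.238 to 0.380) and 1.80 (1.60 to 2.02). The counting interval of the first IP over input lay below 1 for 7 genes, above 1 for Lrp2 alone, and held 1 for Foxa2 and Amn. That of the second IP over input lay above 1 for 3 genes (Gata4, Sox7 and Dab2) and held 1 for the other 7. Intervals cover counting error only, since PCR copies are not independent molecules. The lower values of the genes in the first IP stood beside its low Y-linked sum, and the part of that difference in these values was not tested.

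**Figure D2:**
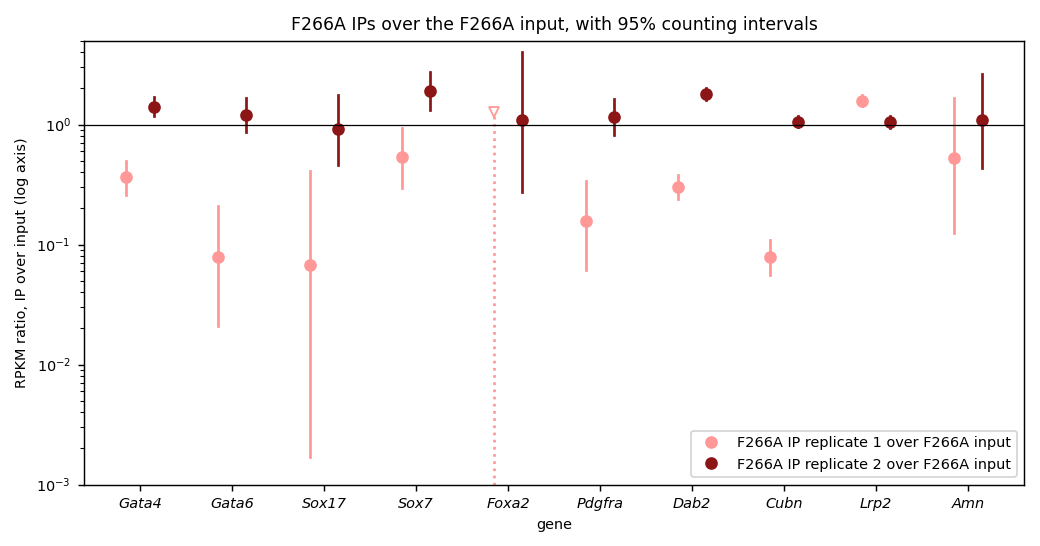
RPKM ratio (log axis) of the first (light) and second (dark) F266A IP over the F266A input for each of the 10 genes, with 95% counting intervals as bars. The open triangle marks the upper limit of 1.27 for Foxa2, which had 0 reads in the first IP. The second IP runs from 0.911 for Sox17 to 1.91 for Sox7, and the first is below it for every gene except Lrp2.

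The summed RPKM of the 10 genes came to 1.33, 1.32 and 1.46 in the empty vector input and IPs, 1.05, 1.73 and 1.15 in those of WT, and 10.5, 4.41 and 14.5 in those of F266A. Lrp2 made up much of the sum in the first F266A IP and in the other lines. Across the 9 libraries the log2(RPKM + 1) profile of each gene was set against the mean profile of the other 9 as a description. Pearson's r was 0.983 for Gata4, 0.982 for Dab2, 0.975 for Gata6 and 0.973 for both Cubn and Pdgfra. It was 0.951 for Sox7, 0.931 for Sox17, 0.883 for Foxa2, 0.703 for Amn and 0.549 for Lrp2. The 9 points share lines, inputs and depth, and for every gene except Lrp2 the F266A input or second IP was the highest point.

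The 5 other genes with the profile most like the mean of the 10, among the genes that 2 or more libraries measured at 1 RPKM or above, were Col4a1 (r = 0.996), Col4a2 (0.989), Nrg1 (0.980), Srgn (0.978) and Sntb2 (0.973), over 9 libraries. Col4a1 and Col4a2 encode the chains of basement membrane type IV collagen. Col4a1 had an RPKM of 0.280, 0.326 and 0.486 in the empty vector libraries, 0.301, 0.731 and 0.506 in WT, and 5.40, 1.03 and 6.98 in F266A. It was thus high in the F266A input and second IP and lower in the first, as Gata4 was.

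The question that the selection of the genes left free was whether their RNA was recovered with WDR5 in the WT line more than in the empty vector line, which has no tag. A gene was tested where 2 or more libraries had it at 1 RPKM or above, which held for 9787 genes. Of the 10 genes, 4 were tested (Gata4, Dab2, Cubn and Lrp2), and all 4 passed this filter only with the F266A libraries counted. In the comparison of enrichment (IP minus input of the same line) between WT and empty vector, 0 of the 4 were called by limma with Benjamini-Hochberg adjustment at an adjusted p under 0.05, and 0% of all genes were, with 173 at an unadjusted p under 0.05. The IPs alone also gave 0 of 4, beside 0% of all genes and 557 at an unadjusted p under 0.05. Since Gata4, Dab2 and Cubn lay at 0.261 RPKM or below in every library compared, and entered through the line in which they were chosen to be high, these counts say nothing about whether their RNA was recovered.

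Gata4 was at 0.146 ± 0.0356 RPKM (SD, n = 2) in the WT IPs and 0.135 ± 0.0410 in the empty vector IPs. The fitted difference was 0.01 ± 0.31 (SE) on the log2(RPKM + 1) scale, with an adjusted p of 0.998 by limma with Benjamini-Hochberg adjustment. Dab2 was at 0.123 ± 0.0704 against 0.226 ± 0.0493, a difference of -0.13 ± 0.46, and Cubn at 0.0358 ± 0.00985 against 0.0627 ± 0.00287, a difference of -0.04 ± 0.40. Lrp2 was at 0.878 ± 0.213 against 0.699 ± 0.0197, a difference of 0.14 ± 0.16 with an adjusted p of 0.931 by the same limma test. The values of WT and empty vector IPs overlapped for Gata4, but not for Dab2, where both WT IPs were lower, for Cubn, also lower, or for Lrp2, where both WT IPs were higher. Over all genes tested the IPs of these lines did not overlap for 39%. From reads alone, the WT over empty vector ratio was 1.27 for Lrp2 (counting interval 1.12 to 1.43) and 0.528 for Dab2 (0.321 to 0.860), and neither difference passed the test over replicates.

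In enrichment, the difference between WT and empty vector was 0.13 ± 0.54 (SE) for Gata4 and 0.23 ± 0.29 for Lrp2. It was 0.00 ± 0.79 for Dab2 and 0.00 ± 0.69 for Cubn. Because 1 spread is estimated over all lines, the disagreement of the F266A IPs enters these errors: without the first F266A IP the SE was 0.25 for Gata4, 0.24 for Dab2 and 0.26 for Cubn, with the differences as before. Under the study's own definition, a WT-bound RNA has both WT enrichment scores above 0 and above all scores of the other lines. By this rule 0 of the 10 genes qualified, against 4.79% of all symbols. The rule also uses the F266A scores, from the libraries in which the genes were chosen to be high, so nothing is read from this count.

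**Figure D3:**
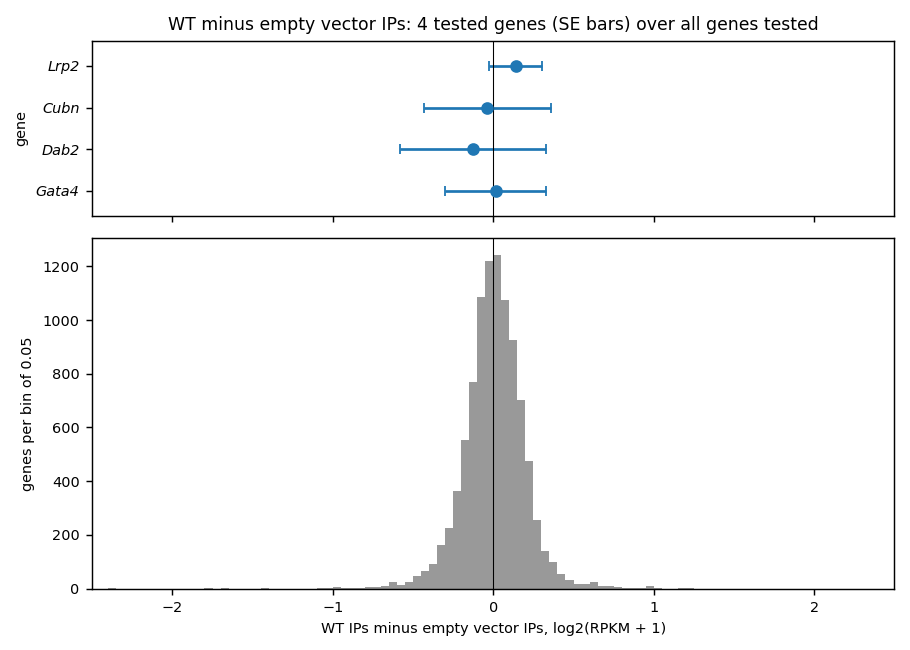
Differences between WT and empty vector IPs on the log2(RPKM + 1) scale (x axis). The top panel shows the 4 tested genes with SE bars, and the lower panel the number of all 9787 tested genes per bin of 0.05. The 4 genes lie between -0.13 and 0.14, a narrow range that depends on the pseudocount of 1, with which genes of low RPKM differ little.

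Whether the genes were higher in IPs than in inputs was tested in the WT and empty vector lines alone, a comparison added after the values were seen so that no F266A library entered it. Here 0 of the 4 tested genes were called, beside 30.7% of all genes by limma with Benjamini-Hochberg adjustment, and as before this count says nothing about the recovery of Gata4, Dab2 or Cubn. Over all genes the median of this difference was 0.27, and it was 0.01 after libraries were scaled to an equal gene-mapped share of reads. Gata4 was at 0.04 ± 0.27 (SE), Dab2 at 0.06 ± 0.39, Cubn at 0.01 ± 0.34 and Lrp2 at 0.05 ± 0.14. Their place relative to the median is not read, since the median changed with this scaling and the place of Dab2 with the pseudocount. With a pseudocount of 0.01, Dab2 was at 0.424 and the median at 0.371. Gata4 (0.366), Cubn (0.188) and Lrp2 (0.106) were below the median there too. With all 3 lines in the comparison 0 of 4 were called, beside 56.9% of all genes.

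For comparisons that include the F266A IPs, which helped to choose the genes, only the background is given. Between WT and F266A, 0 of 4 were called in enrichment (0% of all genes, with 259 at an unadjusted p under 0.05) and 0 of 4 between IPs (1.16% of all genes). Between F266A and empty vector IPs, 0 of 4 were called (4.55% of all genes). Without the first F266A IP, 3 of 4 were called between WT and F266A IPs (2% of all genes) and 3 of 4 between F266A and empty vector IPs (4.9% of all genes). Without the second, these were 0 of 4 (0.715% of all genes) and 1 of 4 (2.81% of all genes). Both F266A IPs enter these comparisons as replicates, although they differed as described above.

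Genes of the pathway around the 10 were counted from lists. Of 11 other endoderm transcription factors, the F266A input was the highest input for 8, and of 12 parietal endoderm genes for 9, beside 27.4% of all genes above 0 and 22.9% of the 9787 genes tested. Several of the 8 factors were near the floor, such as Gata5 at 0.0562 in the F266A input. Otx2 and Prdm1, the factors with the highest mean RPKM, went the other way: Otx2 was at 3.82 in the WT and 0.987 in the F266A input, with the empty vector input between them, and Prdm1 was at 1.67, 1.52 and 0.272 in the empty vector, WT and F266A inputs.

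The 5 parietal endoderm genes with the highest mean RPKM also differed among themselves. Sparc, a matrix protein that parietal endoderm secretes in large amounts, was at 28.5 and 33.6 in the F266A input and second IP, 12.2 in the first, and between 14.9 and 20.9 in the other lines. The laminin chain genes Lama1 and Lamc1 were highest in the F266A input among the inputs, at 5.54 against 3.07 and 2.57 and at 16.0 against 13.0 and 11.9 in the empty vector and WT inputs. Lamb1, another laminin chain, was at 4.11 in the F266A input, between 4.06 and 4.73 in the others. Nid1, which links laminin to collagen, was lower, at 2.90 against 5.82 and 7.06. The first F266A IP was the lowest of the 9 libraries for Sparc.

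Among visceral endoderm secreted and transport genes the F266A input was the highest input for 4 of 12 and the lowest for 5. It was the highest for 27.4% of all genes above 0 and the lowest for 58.9% of the 9787 genes tested. Ttr, Afp and Apoa4, which mark mature visceral endoderm, were listed at 0 in every library. Apoe, which ESCs also express, was at 14.5, 13.2 and 15.9 in the F266A libraries and between 17.5 and 30.1 in the others. Of 13 partners of the receptors and of the adaptor, the F266A input was the highest for 5 and the lowest for 7. Pdgfa, the ligand of PDGFRA, was at 9.49, 18.6 and 15.3 in the empty vector libraries, at 8.24, 13.1 and 16.4 in WT, and at 7.48, 8.26 and 10.8 in F266A. Between IPs and inputs of the WT and empty vector lines its difference was 0.76 ± 0.15 (SE, adjusted p = 0.0160, limma with Benjamini-Hochberg adjustment), and that of Tcn2, a cobalamin carrier named after its value was seen, was 0.35 ± 0.11 (adjusted p = 0.0468, limma with Benjamini-Hochberg adjustment). Neither call held once libraries were scaled to an equal gene-mapped share, where Pdgfa was at 0.44 ± 0.15 (adjusted p = 0.237) and Tcn2 at 0.14 ± 0.11 (adjusted p = 0.607) by the same limma test.

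Markers of the ESC state were lower in the F266A input. All 8 pluripotency genes were lowest in the F266A input among the 3 inputs, as were 58.9% of the 9787 genes tested, with a sum of 194 against 255 in the empty vector and 252 in the WT input. The share of reads on genes was also lowest in the F266A input, at 20.1%. Pou5f1 went in the order empty vector, WT and F266A among the inputs, at 55.5, 50.2 and 39.8, and Nanog was at 8.76, 9.10 and 4.70. Zfp42 was nearly equal in the WT and F266A inputs, at 10.8 and 10.7, with 11.8 in the empty vector input. The sum over the 7 fibroblast markers lay between 0.451 and 1.59 in all libraries, almost all of it Thy1, and Col3a1, Lum and Dcn were listed at 0 throughout. The part of these other genes in the values of the 10 was not tested.

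**Figure D4:**
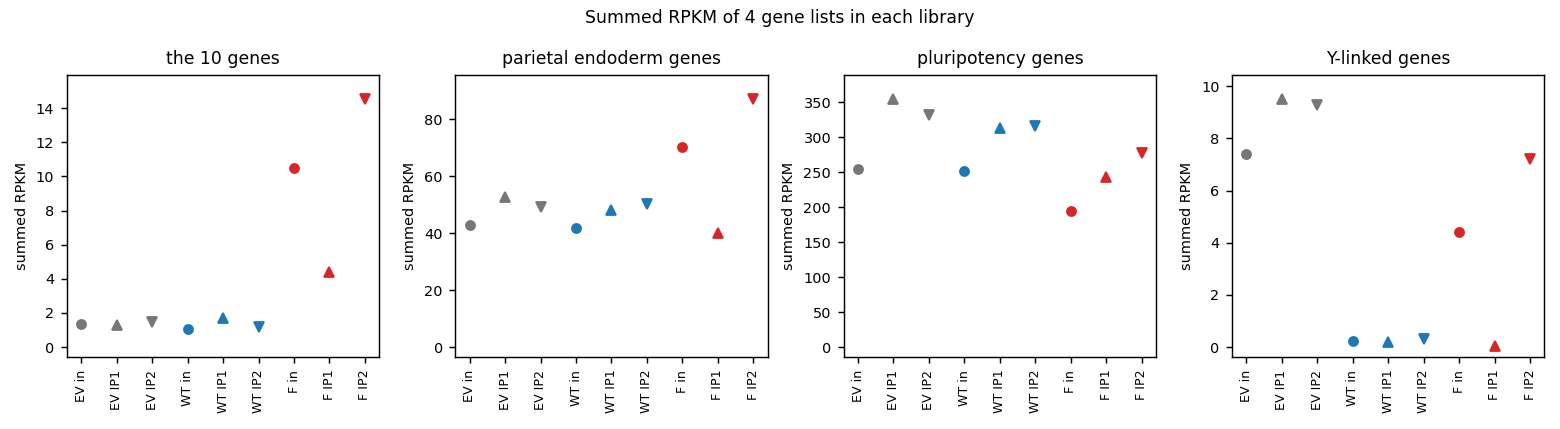
Summed RPKM (y axis, linear) of the 10 genes, 12 parietal endoderm genes, 8 pluripotency genes and 4 Y-linked genes in each of the 9 libraries, with symbols and colours for lines, inputs and IPs as in the plot of RPKM by gene. The first F266A IP, at 4.41 for the 10 genes, lies between the other lines and the rest of its own line, and its Y-linked sum is the lowest of the 9.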

How the data were processed

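RIPiT-seq of 3 mouse ESC lines gave 1 input and 2 IP libraries per line. The authors mapped reads to mm9 with TopHat 1.1.3, and the deposited values are RPKM per RefSeq symbol, computed by their own program with the transcripts of a symbol collapsed. RPKM leave differences in the share of reads on genes in place. The groups came from the labels. The 10 genes and the gene lists were chosen with earlier results of these data known. Named genes are the 10, up to 5 genes of a list with the highest mean RPKM, and the 5 genes with the most similar profile. Gata5, Col3a1, Lum, Dcn, Ttr, Afp, Apoa4, Nanog and Tcn2 were named after their values were seen.

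Differences were fitted to log2(RPKM + 1) by lmFit, contrasts.fit and eBayes (trended prior) of limma 3.58.1, run in R 4.3.3, over 9 libraries in 1 model with a mean per line and fraction, on the 9787 genes that 2 or more libraries had at 1 RPKM or above. Adjusted p-values are Benjamini-Hochberg values over all genes tested, with a threshold of 0.05. The fit was tested on simulated data at 2 levels of spread. At the wider level few 2-fold changes were recovered. The narrower level was added after this was seen, because the wider gave larger standard errors than the real libraries. Reads were estimated from the RPKM of 1 read and GENCODE M1 exon lengths (mm9, 21046 symbols), are approximate for genes with several isoforms, and gave exact Clopper-Pearson intervals at 95%. A count of 0 allows up to 3 reads. Python 3.11.15 was used for the rest. Alternatives were pseudocounts of 0.1 and 0.01, filters at an RPKM of 0.2 and above 0, quantile normalization, scaling to an equal gene-mapped share of reads, eBayes without trend, a replicate block, leaving out each IP in turn and, added after the values were seen, IPs against inputs without the F266A line. Amino acid sequences were not used here.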

Additional observations from a re-analysis of the deposited data

Results flagged for a closer look

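For 2 of the 10 genes, the enrichment scores (IP minus input of the same line on the log2(RPKM + 1) scale) had opposite signs in every IP of a pair of lines, and the differences from the empty vector were not tested. The Sox17 scores were negative in both F266A IPs and positive in both IPs of the other lines, with a mean F266A difference of -0.17 from WT and -0.20 from the empty vector. The difference from WT entered a fit only with the lower filters, and its outcome is not read, because the genes were chosen on the F266A values. The Sox17 IPs of the other lines held about 1 to 3 reads each. The Lrp2 scores were positive in both F266A IPs (0.42 and 0.04) and negative in both empty vector IPs (-0.07 and -0.05), a mean difference of 0.29. They were also positive in both WT IPs (0.28 and 0.05), and the difference between WT and empty vector, 0.23 ± 0.29 (SE), was not called. The first F266A IP, which stood apart in Y-linked genes, had the score farther from 0 in each case, which for Sox17 was -0.27 against -0.02 in the second IP.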

How the results depend on the processing

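No alternative called any of the 10 genes it tested between WT and empty vector, in enrichment or between IPs. Of the 10, 9 were tested with the filter of 0.2, 10 with that above 0 and 4 otherwise. Many values outside the F266A line rest on few reads, and the inputs have no replicate. As before, these counts say nothing about whether the RNA of Gata4, Dab2 or Cubn was recovered. The size of the differences depended on the pseudocount: with 0.1 and 0.01, WT minus empty vector IPs were -0.58 and -0.92 for Dab2, -0.26 and -0.68 for Cubn, 0.07 and 0.12 for Gata4 and 0.27 and 0.30 for Lrp2, none called. In enrichment they were 0.68 and 1.20 for Gata4, 0.08 and 0.20 for Dab2, 0.03 and 0.13 for Cubn and 0.45 and 0.50 for Lrp2. The direction of near-zero differences was not stable. With quantile normalization the enrichment difference was -0.024 for Gata4, -0.078 for Dab2 and -0.109 for Cubn, and the difference between IPs was -0.091 for Gata4. Leaving out each IP in turn, the enrichment difference ran from -0.063 to 0.065 for Dab2 and from -0.0067 to 0.013 for Cubn, and the IP difference from -0.023 to 0.051 for Gata4. Counts of called genes ran from 0 to 7 for WT minus empty vector IPs (7 without either F266A IP), from 0 to 2 for WT minus F266A enrichment (2 without the second F266A IP), from 0 to 196 for WT minus F266A IPs (0 without either empty vector or either WT IP, 196 without the first F266A IP) and from 0 to 480 for F266A minus empty vector IPs (0 without the first and 4 without the second empty vector IP). With all libraries kept, 0 of those of the 10 genes that were tested were called in IPs against inputs over the 3 lines, beside 2.13% to 61.7% of all genes. Between WT and F266A IPs, 0% to 1.57% of all genes were called with all libraries kept. Without the second F266A IP, which left 1 library in that group, the median IP against input difference of the 4 genes was -0.28, against -0.04 in the main fit. The median F266A input difference over the 10 genes was 0.58 with the same share of reads on genes, 0.59 with quantile normalization, 1.80 with a pseudocount of 0.1 and 3.78 with 0.01. Genes called between WT and empty vector IPs numbered 1 with the filter above 0 and 2 with quantile normalization. IPs against inputs over the 3 lines called 3580 with the filter above 0, 239 with quantile normalization, 208 with the same share and 3003 without the F266A line. WT minus F266A called 106 in enrichment with a pseudocount of 0.01, and 0 between IPs with either other filter. F266A minus empty vector IPs called 1 with the filter above 0 and 188 with that of 0.2. They called 242 with quantile normalization and 275 with the same share. Without trend they called 4.57% of all genes.

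The deviations of same-numbered IPs correlated over genes at r = 0.26 for WT with F266A, 0.11 for WT with the empty vector and 0.01 for F266A with the empty vector. Not every pair of lines was thus above 0.1, no label states a shared batch, and the numbers were not taken as pairing. With the replicate block, WT minus empty vector IPs called 7 genes. F266A minus empty vector IPs called 607 genes (6.2% of all genes). The cause of these changes was not tested.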
